A study of Mus musculus with 4 samples.

Results

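The genes described here are those of the NRF2 and glutathione antioxidant system, measured in alveolar type II epithelial cells (AEC2), the surfactant-producing cells that also renew the lung alveolus. They were a named list of 33 genes, chosen with earlier results of these data known. A gene was included when at least 1 probe set of the array carried its symbol alone in the platform annotation. This held for 29 of the 33, out of 18194 genes on the array, and the probe sets of a gene were averaged. They comprised 53 probe sets, with several for 16 genes and 1 for 13. Prdx1 and Ftl1 were read only by probe sets annotated to several genes, and no probe set was matched to Prdx6 and G6pdx, so these 4 were not analysed here.

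NRF2, encoded by Nfe2l2, is a transcription factor held back in the cytoplasm by KEAP1, which marks it for degradation. Oxidants and electrophiles modify KEAP1, and NRF2 then enters the nucleus, pairs with a small MAF protein and binds antioxidant response elements in its target genes. The targets make and recycle glutathione, reduce peroxides, supply NADPH, conjugate or reduce toxic compounds, and handle heme and iron. Bleomycin is a drug that damages DNA through reactive oxygen species and is used to injure the lung epithelium in mice, and the alveolar epithelium is exposed to more oxygen than most tissues.

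AEC2 were sorted by flow cytometry from WT (wild type) and TLR4-/- mice, either untreated or 4 days after bleomycin, and 1 Affymetrix array was run for each of the 4 groups. TLR4 is a receptor of innate immunity, and TLR4-/- mice lack it. The RNA for each array came from AEC2 pooled over 4 to 5 mice, so an array averages its mice and gives no spread between them. The sources used here give neither the TLR4-/- allele nor the age or sex of the mice. A difference between 2 arrays therefore has no replicate check, and each group's pool cannot be told apart from its condition.

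The values were log2 signals. The 12 AEC2 marker genes on the array were bright in all 4 libraries, and their lowest value was at the 85.8th percentile of all genes, for Nkx2-1. Of 4 Tlr4 probe sets, 1 read lower in TLR4-/-, 3.09-fold when untreated and 6.42-fold at day 4. Of the others, 1 was level and the rest read higher in TLR4-/- by 0.41 to 0.66, and where the probe sets lie relative to the deleted part was not stated. The Y-linked gene Eif2s3y was higher at day 4 by 2.04 in WT and 2.01 in TLR4-/-. Day 4 minus untreated was -0.62 (WT) and -1.27 (TLR4-/-) for Xist, so the sex of the pooled mice and the treatment cannot be told apart. Leukocyte and macrophage markers were higher at day 4, and 13 of the 14 past the signal floor rose (limma). The summed linear signal of all 17 on the array went from 4668 to 12224 in WT and from 5015 to 15397 in TLR4-/-. The summed signal of club and other secretory airway markers was 35730 in WT untreated, 27089 in WT day 4, 21570 in TLR4-/- untreated and 27234 in TLR4-/- day 4. AEC2 markers summed to between 94321 and 102765, a sum carried by genes near the top of the range, where a change may be understated. Sftpc, for one, read 14.02 to 14.06, against array maxima of 14.48 to 14.55. Day 4 minus untreated was above 0 for 4 of the 12 in WT and 2 in TLR4-/-, with medians of -0.03 and -0.19. Farther from the top of the range, Cebpa was at -0.30 and -0.78, Nkx2-1 at -0.37 and -0.43 and Abca3 at -0.35 and -0.23. Etv5 was at 0.02 and -0.57, Napsa at -0.24 and 0.12 and Lpcat1 at 0.04 and -0.23. By limma 0 of the 12 were called. In such bulk RNA, a change in the number of cells of a type and in the RNA per cell cannot be told apart. No marker was at 0, since an array gives every probe set a background signal, and the lowest leukocyte value was 4.80, for Adgre1 in WT untreated.

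**Figure D1:**
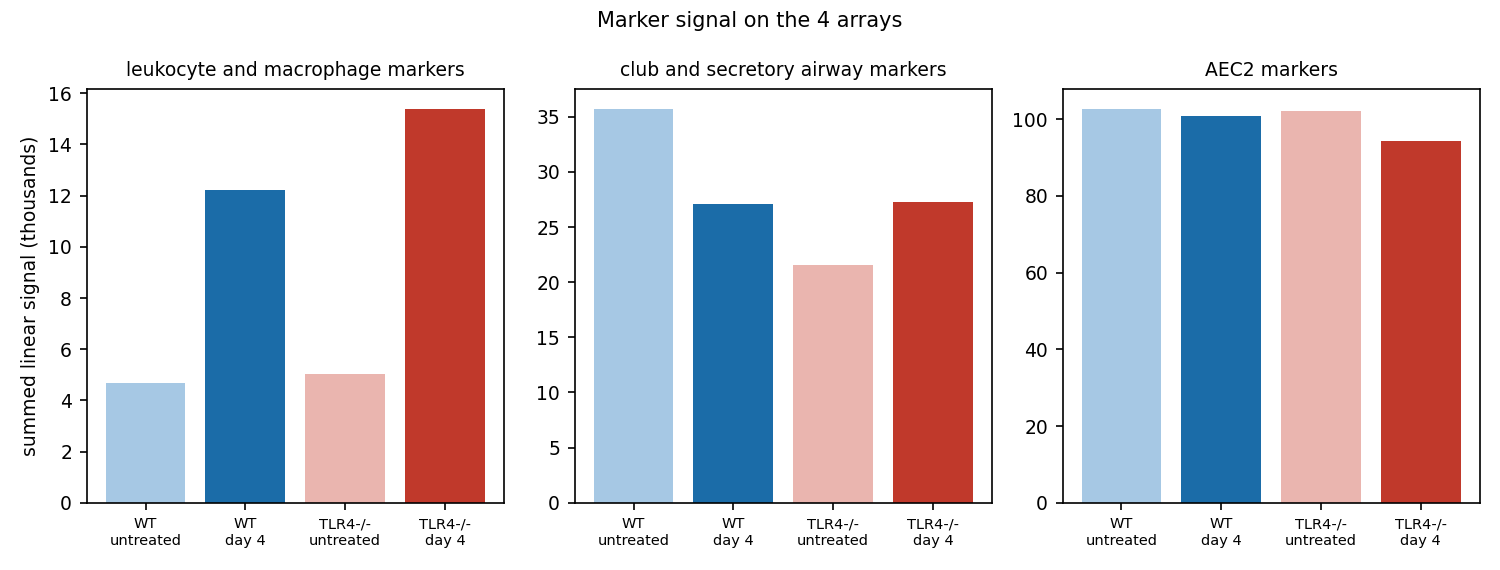
Summed linear signal (y axis, bars starting at 0) of the leukocyte and macrophage, club and secretory airway, and AEC2 marker lists on each of the 4 arrays, 1 pool per bar and no error bars. Leukocyte signal was higher on both day 4 arrays, 12224 and 15397 against 4668 and 5015, and club signal was lowest in TLR4-/- untreated, at 21570.

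Part of the antioxidant genes was higher 4 days after bleomycin in both genotypes. Ephx1, Akr1b8, Srxn1, Blvrb, Gpx2, Gsta3 and Cbr3 rose, by 0.58 to 1.68 (log2) on average, and no measured member fell. They were listed under detoxification, peroxide reduction, and heme and iron. The genes for glutathione synthesis, Gclc and Gclm, the heme oxygenase gene Hmox1 and the genes of NRF2 and KEAP1 did not pass the test. The effect was the average of the WT and the TLR4-/- difference, tested with limma in a model with treatment and genotype over all 9097 genes whose mean exceeded the median gene, a log2 signal of 7.05, and called at a Benjamini-Hochberg adjusted p under 0.05. Of the 26 genes of the system past that floor, 7 rose (26.9%) against 7.18% of all genes tested, and 0 fell against 2.53%. At an unadjusted p under 0.05, 13 of the 26 were higher and 0 lower by limma, against 1426 and 750 of all 9097 genes. In all, 21 of the 26 effects were above 0 (80.8%), against 55.9% over all genes. Since the list was chosen with earlier results of these data known, these shares describe it and are not independent support. The model has 1 residual degree of freedom per gene and counts any unequal response of WT and TLR4-/- as noise, so its standard errors do not rest on replicate pools. Without the WT day 4 array, or without the TLR4-/- day 4 array, limma called 0 of these genes. Those fits called few genes of any kind, 18 higher and 3 lower of all 9097 without the former and 0 and 0 without the latter.

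Without the signal floor the 29 genes had a median difference of 0.43 (log2) in WT and 0.33 in TLR4-/-, against 0.00 and -0.03 for all 18194 genes. Both day 4 arrays lay above both untreated arrays for 22 of the 29, against 23.1% of all genes, and both lay below for 0 of 29, against 25.3%. The differences were above 0 in both genotypes for 24 genes, below 0 in both for 1 (Gstm1) and of opposite sign for 4 (Txn1, Tkt, Me1 and Cbr1). Over all 18194 genes these counts were 5453, 6163 and 6552. As a yardstick for single arrays, the limma prior gave a standard deviation of 0.228 for a difference between 2 arrays. By this measure 21 genes were higher in WT, against 22.1% of all genes, and 18 in TLR4-/-, against 20.7%. Lower were 0 in each, against 17.9% in WT and 21.6% in TLR4-/-. Past the floor, at least 2-fold higher in WT were 4 of the 26, against 2.55% of the 9097 genes, and 3 of the 26 in TLR4-/-, against 2.45%. At least 2-fold lower were 0 of the 26 in each genotype, against 0.308% and 0.89% of the 9097.

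**Figure D2:**
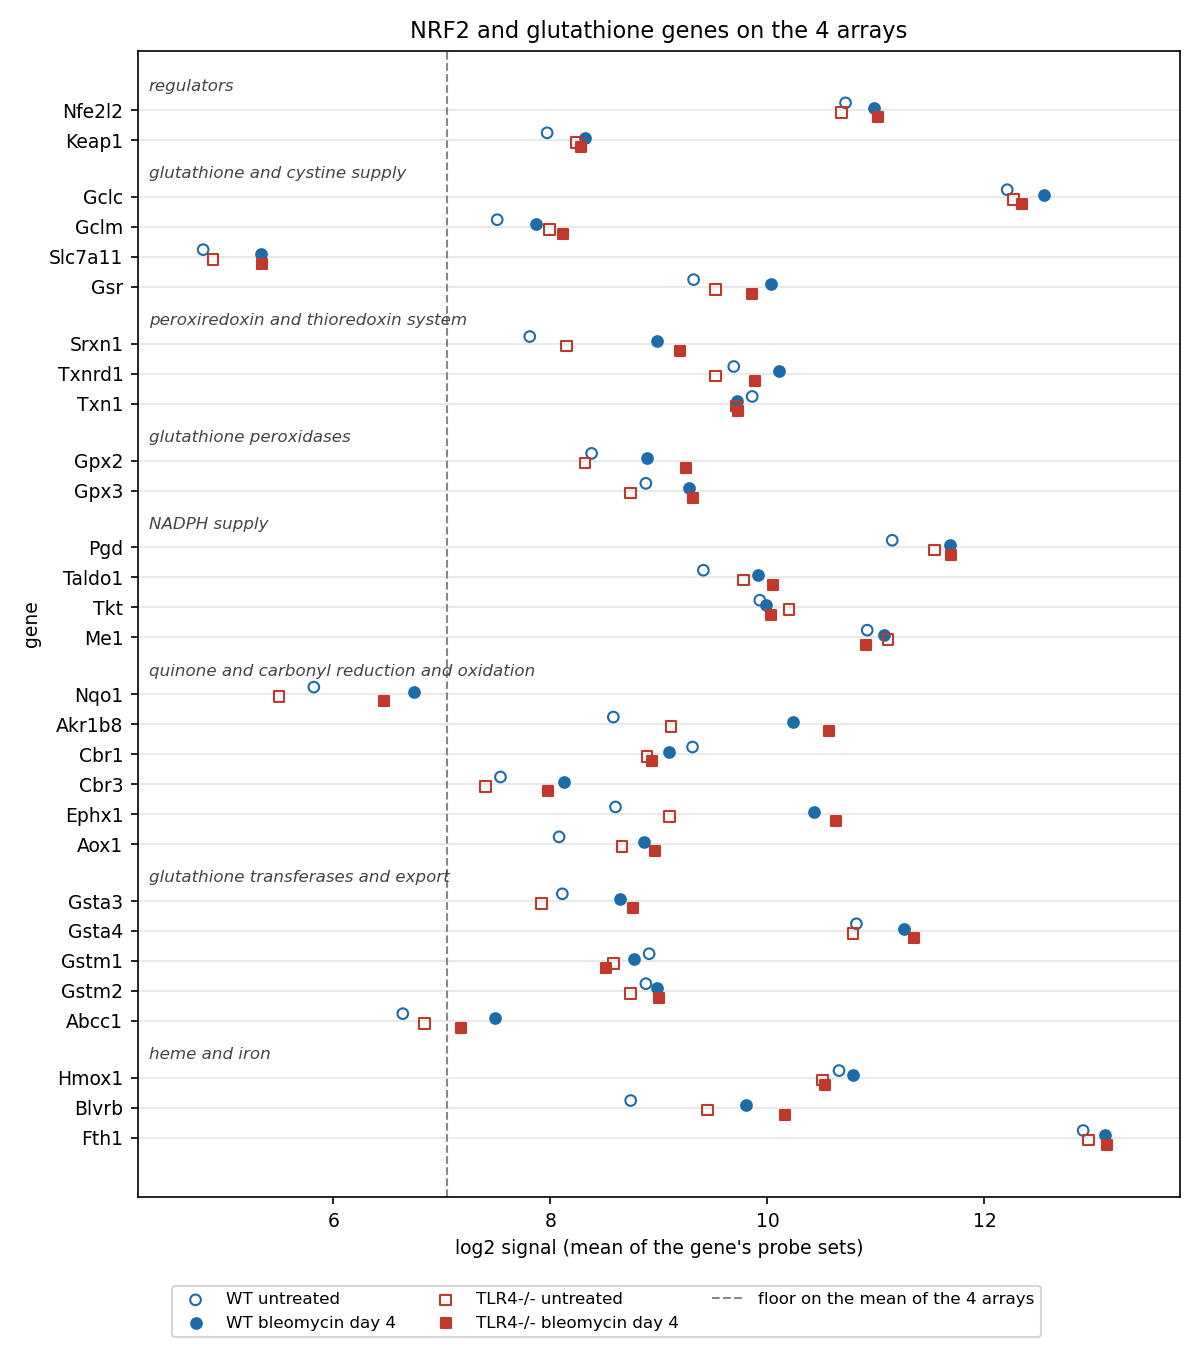
Log2 signal (x axis) of the 29 genes (rows, grouped by role) on the 4 arrays, WT as circles, TLR4-/- as squares, untreated open and day 4 filled; the dashed line is the floor of 7.05, applied to the mean of the 4 arrays. Both filled symbols lie to the right of both open ones for 22 genes; signals of different genes are not comparable, since probe sets differ in brightness.

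The regulators moved little. Nfe2l2 read 10.72 in WT untreated, 10.98 in WT day 4, 10.68 in TLR4-/- untreated and 11.02 in TLR4-/- day 4. Its day 4 signals were thus above its untreated ones by 0.26 and 0.33, and the average effect of 0.30 ± 0.16 (SE, limma) did not pass (adjusted p = 0.27). NRF2 is controlled mainly by protein degradation, which an array does not see. Keap1 read 7.97, 8.32, 8.24 and 8.28 in the same order of groups, with only the WT untreated array apart from the rest. Its effect was 0.20 ± 0.16 (limma adjusted p = 0.521), and its brighter probe set differed by 0.17 and 0.11 against 0.54 and -0.04 for the dimmer.

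Glutathione is made from glutamate, cysteine and glycine, and glutamate-cysteine ligase, with its catalytic subunit GCLC and its modifier subunit GCLM, sets the rate. Gclc read 12.21 in WT untreated, 12.55 in WT day 4, 12.27 in TLR4-/- untreated and 12.35 in TLR4-/- day 4. Its effect was 0.21 ± 0.16 (95% interval -0.14 to 0.56, limma adjusted p = 0.473). Gclm read 7.51, 7.87, 7.99 and 8.12. In TLR4-/- untreated against WT day 4, its brighter probe set read 9.15 against 8.70 and its dimmer one 6.83 against 7.04. Its effect was 0.25 ± 0.16 (limma adjusted p = 0.382), and its probe sets disagreed in TLR4-/-, at -0.24 and 0.50. Slc7a11 encodes the transporter that brings in cystine, the source of cysteine. It was below the floor at 4.80, 5.33, 4.89 and 5.34, with only 1 of its probe sets apart between treatments, by 0.91 in WT and 0.85 in TLR4-/-. Gsr, the reductase that regenerates glutathione with NADPH, read 9.32, 10.03, 9.52 and 9.86. Both day 4 arrays were the higher ones, but the effect of 0.53 ± 0.16 missed the threshold (limma adjusted p = 0.0625). Its probe sets differed in size, with 1.05 and 0.59 for the brighter and 0.37 and 0.09 for the dimmer.

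Of the 3 listed genes of the thioredoxin and peroxiredoxin system, Srxn1 rose and Txnrd1 and Txn1 did not pass the test. SRXN1, sulfiredoxin, repairs peroxiredoxins that peroxide has over-oxidised, and its gene is a widely used NRF2 target. Srxn1 read 7.81 in WT untreated, 8.98 in WT day 4, 8.15 in TLR4-/- untreated and 9.19 in TLR4-/- day 4. The treatments did not overlap, at 2.25-fold higher in WT and 2.06-fold in TLR4-/-. The average effect was 1.11 ± 0.16 (SE, limma adjusted p = 0.00075), and all 4 probe sets were higher in both genotypes, from 0.26 to 1.66 in WT and from 0.70 to 1.29 in TLR4-/-. Thioredoxin reductase, Txnrd1, read 9.69, 10.11, 9.52 and 9.89, with both day 4 arrays above both untreated ones. Its 3 probe sets agreed, at 0.36 to 0.49 in WT and 0.33 to 0.40 in TLR4-/-, but the effect of 0.39 ± 0.16 did not pass (limma adjusted p = 0.142). Thioredoxin itself, Txn1, was level at 9.86, 9.72, 9.71 and 9.73, with an effect of -0.06 ± 0.16 (95% interval -0.40 to 0.28).

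The promoters of the genes that rose were searched for the core of the antioxidant response element, TGACNNNGC, and for TGACTCA, the element shared by AP-1 and NF-E2 type factors, on both strands of the 250 bases before the RefSeq start (GRCm38.p6). The second motif was added after the letters of Srxn1 were seen. The first was found in 4 of the 24 genes of the system with an entry (16.7%), namely Nfe2l2, Gclm, Txnrd1 and Gsta3, against 13.5% of 14453 genes on the array. Of the 7 genes that rose, only Gsta3 held it (14.3%). The second was found in 2 of the 24 (8.33%), Srxn1 and Aox1, against 4.73%, and in no gene of the system did the motifs overlap. These shares were close to the background, a match is not a bound site, and elements farther from the start were not searched. Srxn1 and Gsta3 are shown for their matches, in capitals, and Ephx1 and Akr1b8 as the genes that rose most, which held neither. All but Gsta3 were picked for printing after their values were seen. Srxn1 lies at chr2:152105274-152105523 (plus strand) with matches to TGACTCA on the opposite strand, starting 102 and 45 bases before the start. Gsta3 lies at chr1:21240335-21240584 (plus strand) with TGACATTGC 121 bases before it, Ephx1 at chr1:181017570-181017819 (minus strand) and Akr1b8 at chr6:34353896-34354145 (plus strand).
Srxn1: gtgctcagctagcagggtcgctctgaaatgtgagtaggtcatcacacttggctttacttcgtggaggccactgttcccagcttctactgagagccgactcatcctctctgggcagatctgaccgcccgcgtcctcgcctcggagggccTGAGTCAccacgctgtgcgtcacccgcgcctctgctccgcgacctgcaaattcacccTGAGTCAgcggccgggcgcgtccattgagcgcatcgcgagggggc
Gsta3: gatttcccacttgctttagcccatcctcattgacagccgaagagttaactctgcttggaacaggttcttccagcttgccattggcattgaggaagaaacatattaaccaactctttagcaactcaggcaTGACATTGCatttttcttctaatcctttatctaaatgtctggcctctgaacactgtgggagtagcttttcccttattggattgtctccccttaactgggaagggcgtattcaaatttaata
Ephx1: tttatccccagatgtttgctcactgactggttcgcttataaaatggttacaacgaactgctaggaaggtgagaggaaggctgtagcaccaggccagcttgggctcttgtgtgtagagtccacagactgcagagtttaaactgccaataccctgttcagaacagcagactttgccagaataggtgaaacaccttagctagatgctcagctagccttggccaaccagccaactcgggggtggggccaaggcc
Akr1b8: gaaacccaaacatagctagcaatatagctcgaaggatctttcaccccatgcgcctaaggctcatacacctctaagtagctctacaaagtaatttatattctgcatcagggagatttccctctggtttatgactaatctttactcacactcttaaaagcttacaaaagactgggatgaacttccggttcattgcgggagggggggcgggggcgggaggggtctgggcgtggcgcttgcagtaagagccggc

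Of the glutathione peroxidases, which reduce peroxides at the expense of glutathione, Gpx2 rose. GPX2 is the form of epithelial linings. Gpx2 read 8.38 in WT untreated, 8.89 in WT day 4, 8.32 in TLR4-/- untreated and 9.25 in TLR4-/- day 4, so the untreated arrays were alike and the TLR4-/- array was the higher of those at day 4. Its effect was 0.72 ± 0.17 (SE, limma adjusted p = 0.0167), or 1.65-fold. Gpx3, which encodes the secreted form, read 8.88, 9.28, 8.74 and 9.31. The treatments did not overlap, but its effect of 0.49 ± 0.16 did not pass (limma adjusted p = 0.0691).

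The genes of NADPH supply were not called. PGD, TALDO1 and TKT belong to the pentose phosphate pathway and ME1 is the cytosolic malic enzyme. Pgd read 11.15 in WT untreated, 11.68 in WT day 4, 11.54 in TLR4-/- untreated and 11.69 in TLR4-/- day 4, and Taldo1 read 9.41, 9.91, 9.78 and 10.05. In both genes the WT untreated array was the lowest and stood apart from the other 3. The effects were 0.34 ± 0.16 for Pgd (limma adjusted p = 0.23) and 0.38 ± 0.16 for Taldo1 (adjusted p = 0.158). Tkt read 9.93, 9.99, 10.20 and 10.03, and its probe sets disagreed in sign in WT, from -0.19 to 0.35. Me1 read 10.92, 11.07, 11.11 and 10.91. The limma effects of Tkt and Me1 were -0.06 ± 0.16 and -0.03 ± 0.16.

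The largest effects in the system were those of Ephx1 and Akr1b8, whose enzymes act on epoxides and on aldehydes. Other genes listed in this role, Cbr3, Aox1 and Cbr1, had smaller effects. EPHX1, the microsomal epoxide hydrolase, opens reactive epoxides. Ephx1 read 8.60 in WT untreated, 10.43 in WT day 4, 9.10 in TLR4-/- untreated and 10.63 in TLR4-/- day 4. The day 4 signals were 3.56-fold and 2.89-fold the untreated ones, and the average effect was 1.68 ± 0.16 (SE, limma adjusted p = 4.05e-05). AKR1B8 is an aldo-keto reductase that reduces aldehydes with NADPH. Akr1b8 read 8.58, 10.24, 9.11 and 10.57 in the same order. It was 3.17-fold higher in WT and 2.76-fold in TLR4-/-, with an effect of 1.57 ± 0.16 (limma adjusted p = 5.99e-05). For both genes the treatments were far apart and TLR4-/- exceeded WT within each treatment.

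Nqo1, the quinone reductase gene that serves as the usual NRF2 marker, was below the floor. It read 5.82 in WT untreated, 6.74 in WT day 4, 5.50 in TLR4-/- untreated and 6.47 in TLR4-/- day 4, that is 1.89-fold and 1.96-fold higher. It was not tested in the main model; in the fit of all genes without the floor its effect was 0.94 ± 0.12 (SE, limma adjusted p = 0.0328). A dim probe set understates a fold, so this size is uncertain. Of the carbonyl reductases, Cbr3 rose, reading 7.54, 8.13, 7.40 and 7.98, with an effect of 0.58 ± 0.15 (limma adjusted p = 0.0338). Its neighbour in the family, Cbr1, read 9.31, 9.09, 8.89 and 8.94, with an effect of -0.08 ± 0.16 (adjusted p = 0.82). Cbr1 was thus highest in WT untreated and lowest in TLR4-/- untreated. The summed club marker signal was highest and lowest on the same arrays, at 35730 and 21570, and the part of club cell RNA was not tested. Aox1, an aldehyde oxidase gene, read 8.08, 8.86, 8.66 and 8.96. Its effect was 0.54 ± 0.17 and did not pass (limma adjusted p = 0.0656).

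Glutathione transferases attach glutathione to reactive compounds, and ABCC1 exports the conjugates. Gsta3 read 8.11 in WT untreated, 8.64 in WT day 4, 7.92 in TLR4-/- untreated and 8.76 in TLR4-/- day 4. It rose by 0.69 ± 0.16 (SE, limma adjusted p = 0.0189), and its probe sets agreed at 0.52 and 0.54 in WT and 0.89 and 0.79 in TLR4-/-. Gsta4, whose enzyme clears the lipid peroxidation product 4-hydroxynonenal, read 10.82, 11.26, 10.79 and 11.35. The treatments did not overlap, with an effect of 0.50 ± 0.16 that missed the threshold (limma adjusted p = 0.0651). Of the mu class, neither listed gene passed the test. Gstm1 read 8.91, 8.77, 8.58 and 8.51. Its effect was -0.11 ± 0.16 (limma adjusted p = 0.738), and 2 of its 4 probe sets are of a type that can also bind related transcripts. Gstm2 was 0.10 higher at day 4 in WT and 0.25 higher in TLR4-/-, with an effect of 0.18 ± 0.16 (adjusted p = 0.555). Abcc1 had a mean of 7.04, just below the floor, at 6.64, 7.49, 6.84 and 7.18, higher at day 4 by 0.85 in WT and 0.34 in TLR4-/-.

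The heme and iron genes split. HMOX1 opens the heme ring, BLVRA turns the product into bilirubin, and ferritin stores the iron that is freed. Blvrb encodes a second biliverdin reductase, which acts on other forms of biliverdin. Blvrb read 8.74 in WT untreated, 9.80 in WT day 4, 9.45 in TLR4-/- untreated and 10.16 in TLR4-/- day 4. It rose by 0.88 ± 0.16 (SE, limma adjusted p = 0.00449), or 1.85-fold, and WT untreated was the array farthest from the rest. Without that array the effect was 0.53 ± 0.19 and did not pass (limma adjusted p = 0.146). Hmox1 read 10.66, 10.79, 10.51 and 10.53, with an effect of 0.08 ± 0.16 (95% interval -0.26 to 0.41, limma adjusted p = 0.828). Macrophages express Hmox1 too, and the part of their RNA in its signal was not tested. The ferritin heavy chain gene Fth1 read 12.91, 13.11, 12.96 and 13.13, with an effect of 0.19 ± 0.15 (adjusted p = 0.527).

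**Figure D3:**
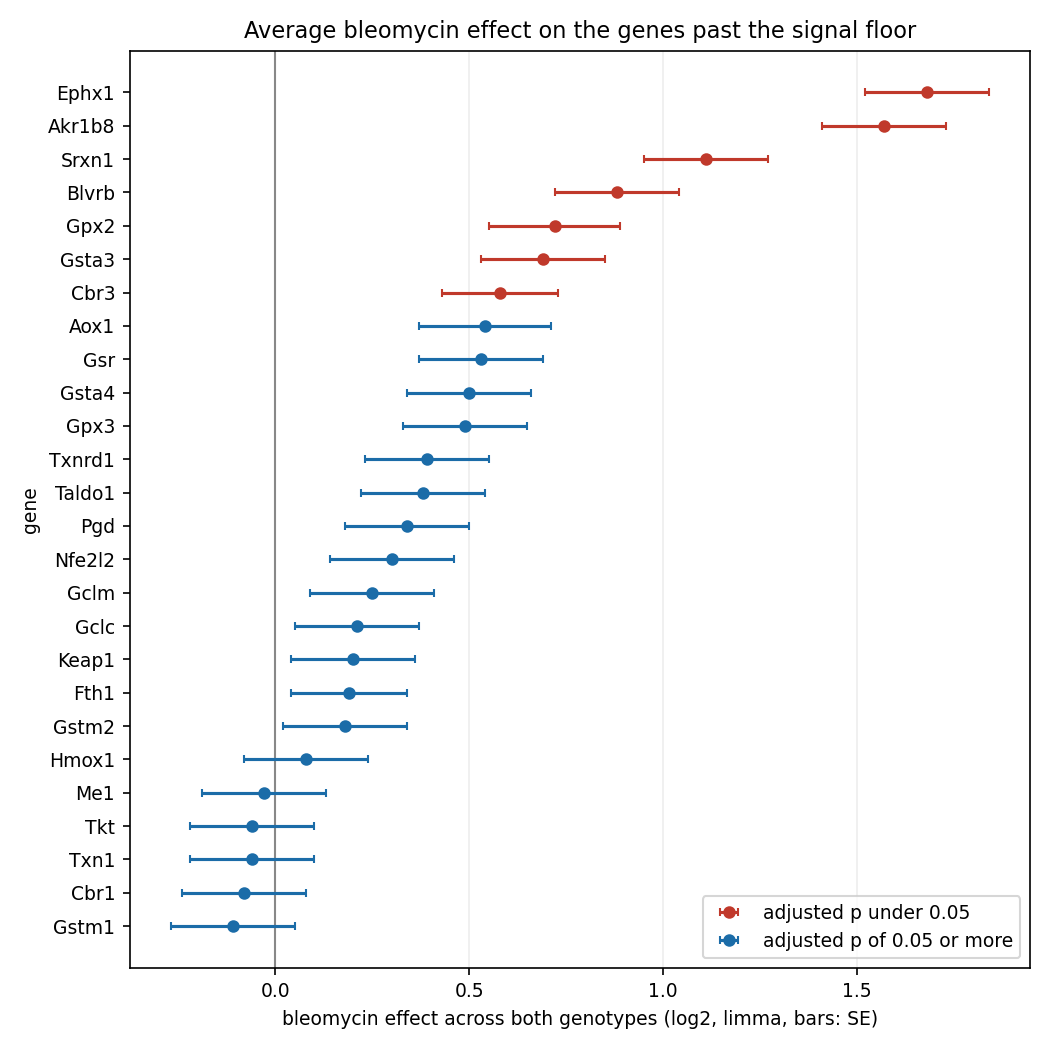
Average bleomycin effect across both genotypes (x axis, log2, limma; bars are SE) for the 26 genes past the signal floor, red where the adjusted p was under 0.05. The 7 called genes run from Cbr3 at 0.58 to Ephx1 at 1.68, and Gstm1 is the lowest at -0.11.

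Markers of several other cell types were higher on the same day 4 arrays as the genes that rose. Beside the leukocyte list, 4 of the 4 mesothelial markers past the floor rose. The summed signals of all 6 on the array went from 1772 to 3292 in WT and from 1321 to 3442 in TLR4-/-. The keratin gene Krt19 was the brightest of them on every array, at 9.77 in WT untreated and 10.63 in WT day 4. It read 9.90 in TLR4-/- untreated and 11.02 in TLR4-/- day 4, and so weighed most in these sums. Of the 8 AEC1 markers past the floor (the flat alveolar cells) 4 rose, and the sums of all 9 on the array went from 14710 to 19411 and from 17029 to 19942. Of 2 fibroblast markers past the floor 1 rose, and the sums of all 7 on the array went from 814 to 1716 and from 598 to 1457. The median difference of the 7 was 1.24 in WT and 1.05 in TLR4-/-. Not every list was higher. Past the floor, 1 of 3 neutrophil and 0 of 12 club markers rose, and of 5 ciliated markers 0 rose and 2 fell. Of endothelial markers 0 of 1 rose, and of erythroid and platelet markers 0 of 2. The part of RNA from any of these cells in the effects was not tested. The called genes also differed in how they held up. Ephx1, Akr1b8 and Srxn1 were called under all 5 alternative processing settings, Blvrb under 4, and Gpx2, Gsta3 and Cbr3 only with the limma trend. Without either untreated array Cbr3 was not called, and without the TLR4-/- untreated array Gsta3 was not. With quantile normalization or with arrays centred on their medians, 4 of the 26 rose.

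The pathway's other genes, a list of 102 on the array that includes further glutathione, thioredoxin, transferase, heme and regulator genes, moved in both directions. Of the 83 past the floor, 10 rose, against 7.18% of all genes, and 3 fell (3.61% against 2.53%), by limma. Gsto1, a transferase gene of the omega class, rose by 1.24 ± 0.16 (adjusted p = 0.000313). The aldo-keto reductase genes Akr1c13 and Akr1c12 rose by 0.92 ± 0.16 and 0.64 ± 0.18, and the probe sets of such close relatives may read each other. Blvra, the other biliverdin reductase gene, rose by 0.89 ± 0.16, and so did the extracellular superoxide dismutase gene Sod3, by 0.80 ± 0.17. The peroxiredoxin genes Prdx4 and Prdx3 rose by 0.61 ± 0.15 and 0.56 ± 0.16. Sesn2, a stress-induced gene that p53 also controls, rose by 0.64 ± 0.17, and the carbonyl reductase gene Cbr4 by 0.58 ± 0.16. Ptgr1, an NADPH-dependent reductase gene named after its values were seen, rose by 0.56 ± 0.16. Without the WT untreated array Sesn2 was at 0.31 and Cbr4 at 0.36, and neither passed (limma adjusted p = 0.344 and 0.248). Sesn2, Cbr4, Prdx3, Prdx4, Akr1c12 and Ptgr1 were each called under only 1 of the 5 alternative processing settings.

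The 3 that fell were Aox3, Ggt5 and Nfe2l3. Aox3, an aldehyde oxidase gene like Aox1, read 11.69 in WT untreated, 10.73 in WT day 4, 11.66 in TLR4-/- untreated and 10.47 in TLR4-/- day 4. It fell by 1.08 ± 0.16 (limma adjusted p = 0.000988) while Aox1 was higher by 0.54. Ggt5, of the family that breaks down extracellular glutathione, fell by 0.96 ± 0.17, and Nfe2l3, a relative of Nfe2l2, by 0.70 ± 0.16. The small MAF partners and the rival repressor were not called, at 0.30 ± 0.16 for Mafg, 0.25 ± 0.16 for Mafk, -0.06 ± 0.16 for Maff and -0.46 ± 0.17 for Bach1 (limma adjusted p = 0.276, 0.373, 0.868 and 0.112). Catalase and the cytosolic superoxide dismutase, Cat and Sod1, were at -0.30 ± 0.16 and -0.19 ± 0.16 without passing. These 6 genes were named after their values were seen.

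Between the genotypes, TLR4-/- untreated cells had higher signals than WT for part of the system, and the genotypes were closer at day 4. The test over both treatments called 0 of the 26 genes higher and 0 lower, as it did for all 9097 genes (0%). At an unadjusted p under 0.05 limma had 3 higher (Blvrb, Akr1b8 and Gclm) and 0 lower, against 656 and 166 of all 9097 genes. The smallest adjusted p was 0.311, for Blvrb, at 0.54 ± 0.16 higher in TLR4-/-, with the same direction in both treatments. At least 2-fold higher were 0 of the 26 untreated, against 0.78% of the 9097 genes, and 0 at day 4, against 0.044%. At least 2-fold lower were 0 untreated, against 0.341%, and 0 at day 4, against 0.055%.

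In untreated cells 10 of the 29 genes were higher in TLR4-/- by more than 0.228 and 3 were lower, against 21.9% and 15.7% of all 18194 genes. Past the floor these were 10 and 2 of 26, against 2671 and 1144 of 9097 genes. The higher ones were Blvrb at 0.71, Aox1 at 0.58, Akr1b8 at 0.53, Ephx1 at 0.50, Gclm at 0.48, Pgd at 0.39, Taldo1 at 0.37, Srxn1 at 0.34, and Tkt and Keap1 at 0.27 each. They include 4 of the 7 genes that rose with bleomycin and 3 of the pentose phosphate pathway. Lower were Cbr1 at -0.42 and Gstm1 and Nqo1 at -0.32 each. Club markers had a list median of -0.82 in the same comparison and mesothelial markers one of -0.88, with Krt19 apart from the latter at 0.13. The part of RNA from the cells of either list in these differences was not tested. With quantile normalization 10 genes were higher and 8 in place of 3 lower by this measure, against 18.2% and 18.1% of all genes. At day 4 the counts were 4 higher and 4 lower, against 13.7% and 11.7% of all genes. The higher ones were Blvrb and Gpx2 at 0.36, Akr1b8 at 0.33 and Gclm at 0.25, and the lower ones Abcc1 at -0.31 and Hmox1, Gstm1 and Nqo1 at -0.26 each.

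**Figure D4:**
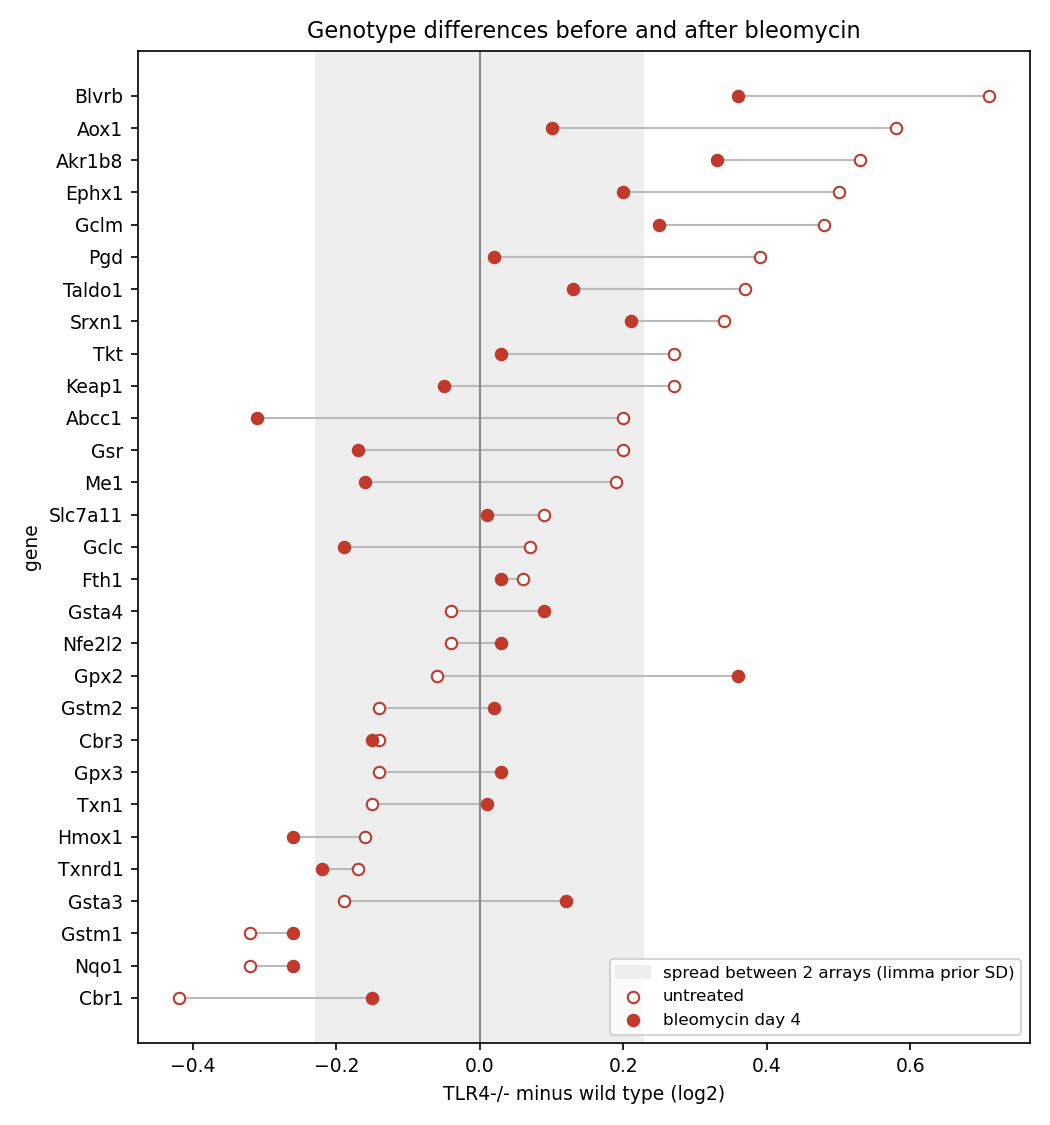
TLR4-/- minus WT (x axis, log2) for each of the 29 genes, untreated as open and day 4 as filled points; the grey band is the spread of 0.228 between 2 arrays on either side of 0. Open points run from -0.42 for Cbr1 to 0.71 for Blvrb, and 21 filled points lie within the band.

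The responses to bleomycin differed by less than 2-fold between the genotypes for every gene of the system. Past the floor, the TLR4-/- response minus the WT response was at least 2-fold higher for 0 of the 26 and at least 2-fold lower for 0. Among the 9097 genes tested these shares were 0.671% and 0.846%. With 1 array per group this difference has no test, and it shares the untreated arrays with the genotype differences above. Its median over the 29 genes was -0.10, against -0.03 for all genes. It exceeded 0.228 in size above 0 for 3 genes and below 0 for 12, against 19.6% and 25.2% of all genes. That spread is for a difference between 2 arrays, and a value from 4 arrays varies more, so 0.228 is only a cut-off here. The prior behind it was also drawn from such unequal responses of the genes tested. These counts depended on the processing. With quantile normalization they were 5 and 7, against 22.2% and 21.7%, and with centring on array medians 3 and 9, against 21.1% and 23.3%. The difference was lowest for Abcc1 (-0.51), Aox1 (-0.48), Gsr (-0.37) and Pgd (-0.37). Abcc1 was below the floor, and its probe sets were at 0.58 and 1.13 in WT and 0.31 and 0.37 in TLR4-/-. For Pgd, probe sets of a type that can also bind related transcripts were at 0.52 to 0.55 in WT and 0.07 to 0.11 in TLR4-/-. Its remaining probe set was at 0.50 and 0.37. It was highest for Gpx2 (0.42) and Gsta3 (0.31), which were higher at day 4 by 0.93 and 0.84 in TLR4-/- and by 0.51 and 0.53 in WT. For Nqo1, Cbr3 and Txnrd1 it was 0.05, -0.01 and -0.05.

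**Figure D5:**
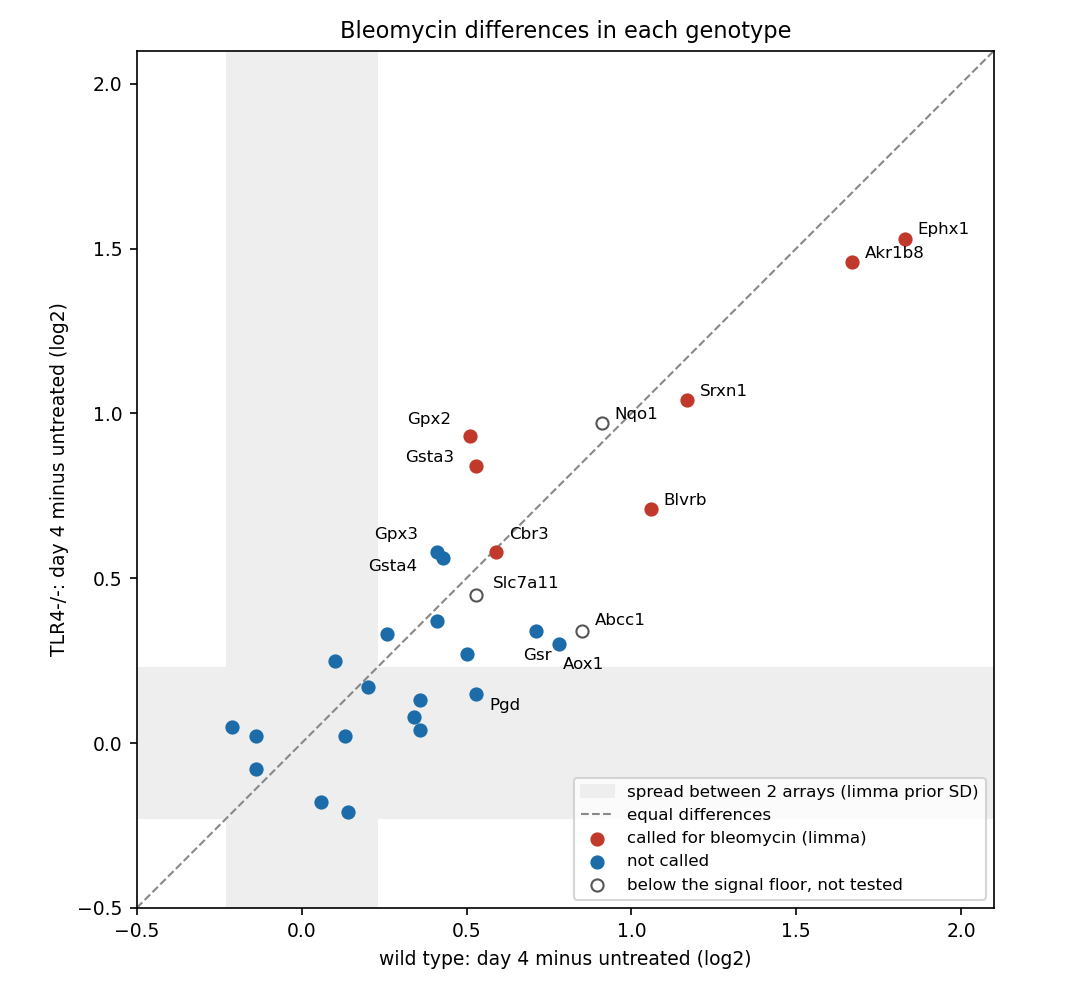
Day 4 minus untreated (log2) in WT (x axis) against TLR4-/- (y axis) for the 29 genes, 1 point per gene; red points were called by limma across genotypes, open points were below the floor, grey bands mark the spread of 0.228 and the dashed line equal differences. Ephx1 (1.83 and 1.53) and Akr1b8 (1.67 and 1.46) are highest in both genotypes, and Gpx2 and Gsta3 lie above the line.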

How the data were processed

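AEC2 RNA of 4 groups was measured on 1 Affymetrix array each. The cDNA was amplified and biotin labelled, per the labels' protocols. The authors deposited 1 value per probe set, read here as log2 signals from their range (3.07 to 14.55) and their array medians (6.93 to 6.98); the sources used here state no log base, software, normalization or detection calls. Of 45101 probe sets, 34958 had 1 gene symbol, 932 several and 9211 none, and symbols were updated through Entrez identifiers for 34754. Probe sets were averaged per gene. Genes past the floor were tested in R 4.3.3 with limma 3.58.1 (lmFit and eBayes; prior of 11.4 degrees of freedom), and the fit was checked on simulated data. Groups held 1 array, so other differences had no test. Promoter sequences came from RefSeq, GRCm38.p6. All members on the array are named, and of the other pathway genes the 12 largest effects among those called; Ptgr1 (called, next by size) and the Maf, Bach1, Cat and Sod1 values are additions. Members and lists were chosen with earlier results of these data known. Alternatives were the probe set of highest mean, no floor, quantile normalization, centring on array medians, the limma trend and leaving out each array.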

Additional observations from a re-analysis of the deposited data

How the results depend on the processing

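The number of measured genes of the system that rose with bleomycin was 7, and 4 with the probe set of highest mean, without the floor, with quantile normalization and with arrays centred on their medians. All genes that rose or fell numbered 653 and 230, and 271 and 100 after centring. Leaving out an array gave 0 to 7 genes of the system that rose and 0 that fell. Both counts of 0 came without 1 of the day 4 arrays, WT or TLR4-/-. For the other pathway genes the 10 that rose were 4 with the probe set of highest mean, 2 without the floor, 4 with quantile normalization and 3 after centring. The 3 that fell were 1 without the floor. Leaving out an array gave 0 to 10 that rose and 0 to 4 that fell. With 3 arrays the fit had the tested factor alone, and a lone array is assumed to vary like the others. Of the uncalled effects, Gclm turned to -0.04, Tkt to 0.09 and Me1 to 0.04 with the probe set of highest mean. Over the fits with an array left out, the effects ranged from -0.14 to 0.02 for Txn1, -0.19 to 0.08 for Tkt and -0.13 to 0.06 for Me1. The ranges were -0.29 to 0.13 for Cbr1, -0.27 to 0.05 for Gstm1 and -0.06 to 0.21 for Hmox1. The causes were not tested. The genotype counts were 0 in all settings run, and the counts of 2-fold differences stayed within 1.5 times under those run. No paired analysis was possible because each group held 1 array and the labels carry no replicate numbers. Signal over background limits Nqo1, Slc7a11 and Abcc1, which lay below the floor.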
